A study of Mus musculus with 18 samples.

Results

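Imprinted genes, of which Igf2 was one, were followed through the first days of differentiation of mouse embryoid bodies with and without the transcription factor Msgn1. The list held 36 named imprinted genes, and a gene was represented by the probe set with the highest mean over 18 arrays among those annotated to that gene symbol alone. Of the 36 genes, 34 had such a probe set and 33 passed a filter on low signal, among 14282 genes tested in all. H19 and Dio3 had no probe set of their own, and Zim1 stayed below the filter, a group mean signal of 13.2. By the parental allele known to be expressed, 20 of the listed genes are paternal, 14 are maternal, and 2, Grb10 and Gnas, use different alleles in different tissues or transcripts. These classes are general knowledge, and whether each holds in these embryoid bodies was not measured.

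Imprinted genes are transcribed from the copy inherited from one parent, because DNA methylation laid down in the egg or the sperm at control regions is kept through early development. They lie in clusters in which one control region governs several genes, and many of them set the growth of the embryo and placenta: the paternally expressed Igf2 promotes growth, and the maternally expressed Igf2r, Cdkn1c and Phlda2 restrain it. The arrays measured the RNA of both alleles together, so no value below shows which allele was transcribed.

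Embryoid bodies are clumps of embryonic stem cells that differentiate in suspension. All groups came from 1 stem cell line of strain 129P2, A2lox-Flag Msgn1, in which doxycycline switches on a Flag-tagged Msgn1, a basic helix-loop-helix factor of the presomitic mesoderm. The induced groups received 1 µg/ml doxycycline on day 2 of differentiation and were collected 12, 24 or 48 h later, and the uninduced groups of the same line were collected at the same times without it. Each of the 6 groups had 3 arrays labelled as biological replicates. No group analysed here received doxycycline without the Msgn1 cassette, and the stem cells had been grown on mitomycin-treated mouse embryonic fibroblasts in medium with serum before they were aggregated.

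Signal is the deposited linear intensity of a probe set, and a change is a difference between group means of log2(signal + 32), given ± the standard error of the limma fit. A fold is on that same scale and understates the change of dim genes. A gene was called when its Benjamini-Hochberg adjusted p over all 14282 genes was under 0.05, and the verbs rose and fell are kept for called genes. Values by array are in the order of replicates 1, 2 and 3. The 2% trimmed mean of signal was 150 on every array, replicates correlated at 0.990 to 0.993, and the Msgn1 probe set was higher in the induced groups by 1.01, 1.08 and 1.13 at 12, 24 and 48 h. The number of arrays, 3 in each group, limits the precision, and the p-values measure the spread between replicates of 1 line. In RNA of whole embryoid bodies, fewer cells of a type and less RNA per cell cannot be told apart.

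The promoters of the members whose RNA differed most at 48 h are shown first, since they differ in base composition and in motifs. RefSeq promoter windows of 250 bases before a transcription start (GRCm38.p6) were held for 30 of the 36 genes, 47 windows in all. Capitals mark CANNTG, the E-box bound by basic helix-loop-helix factors, which was searched on both strands. The first Igf2 window lies on the minus strand at chr7:142666817-142667066 and the third, also on the minus strand, at chr7:142658805-142659054. The Asb4 windows lie on the plus strand at chr6:5383136-5383385 and chr6:5390160-5390409, and the Phlda2 window lies on the minus strand at chr7:143502525-143502774.
Igf2, window 1: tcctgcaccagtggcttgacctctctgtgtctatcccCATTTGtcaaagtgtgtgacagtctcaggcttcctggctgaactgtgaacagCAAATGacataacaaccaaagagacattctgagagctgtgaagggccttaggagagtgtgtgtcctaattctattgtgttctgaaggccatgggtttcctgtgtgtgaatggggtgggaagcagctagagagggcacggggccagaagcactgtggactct
Igf2, window 3: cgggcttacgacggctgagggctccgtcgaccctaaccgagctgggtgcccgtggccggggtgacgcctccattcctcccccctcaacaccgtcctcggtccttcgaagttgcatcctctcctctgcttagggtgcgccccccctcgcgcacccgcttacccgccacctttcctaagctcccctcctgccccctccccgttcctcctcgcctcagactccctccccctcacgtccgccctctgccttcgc
Asb4, window 1: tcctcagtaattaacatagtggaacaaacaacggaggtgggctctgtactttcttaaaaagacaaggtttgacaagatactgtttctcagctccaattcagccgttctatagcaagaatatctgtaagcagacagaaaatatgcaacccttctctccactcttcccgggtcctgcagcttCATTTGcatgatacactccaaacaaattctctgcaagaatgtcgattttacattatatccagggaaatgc
Asb4, window 2: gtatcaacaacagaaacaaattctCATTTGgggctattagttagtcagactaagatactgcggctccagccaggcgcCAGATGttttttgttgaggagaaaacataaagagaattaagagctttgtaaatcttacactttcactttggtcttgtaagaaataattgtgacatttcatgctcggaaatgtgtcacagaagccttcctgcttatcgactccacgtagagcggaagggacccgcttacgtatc
Phlda2, window 1: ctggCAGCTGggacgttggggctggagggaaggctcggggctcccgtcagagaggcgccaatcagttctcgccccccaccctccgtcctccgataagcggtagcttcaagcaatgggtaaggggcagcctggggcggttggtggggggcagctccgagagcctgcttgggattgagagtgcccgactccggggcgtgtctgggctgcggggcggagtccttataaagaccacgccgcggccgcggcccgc
Igf2 has 4 windows, and the array cannot tell which start was used. Its first window held 2 CANNTG matches and 1 CpG, window 3 held 22 CpG and 0 CANNTG matches, and the Phlda2 window held 21 CpG. CANNTG stood in 66.0% of the members' windows and in 66.2% of all 32851 windows, shares that lay close together. The narrower form CATTTG, itself a CANNTG, was found on either strand in 8 of the members' windows (17.0%) and in 12.0% of all windows, and the 8 were the first window of Igf2, both windows of Asb4, 1 window each of Slc38a4, Snrpn and Kcnq1ot1, and 2 overlapping windows of Gnas that hold the same match, so that it counts in both. By their single-symbol probe sets, Snrpn, Kcnq1ot1 and Gnas were not called for induction. Brighter probe sets that Snrpn shares with Snurf, given under other observations, were in part called lower.

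Members' windows were rich in CpG, with a median of 10 per window against 6 over all windows, and a median GC content of 60% against 52.4%. TGCCGC, the core of the motif that Zfp57 reads on methylated DNA at imprint control regions, stood on either strand in 7 of the 47 windows (14.9%) and in 8.68% of all windows. The 7 belonged to Mest, Copg2, Nap1l5, Zim1, Plagl1 and Meg3, and 2 of them were Mest windows that overlap almost wholly. The second Mest window, on the plus strand at chr6:30737800-30738049, is printed with its TGCCGC matches in capitals, which spell its reverse complement.
Mest, window 2: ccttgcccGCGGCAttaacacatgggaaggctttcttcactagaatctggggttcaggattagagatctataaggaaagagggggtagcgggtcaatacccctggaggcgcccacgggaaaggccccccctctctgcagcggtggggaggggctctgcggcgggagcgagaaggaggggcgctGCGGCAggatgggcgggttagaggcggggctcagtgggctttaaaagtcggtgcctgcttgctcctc
Peg3 and Usp29 are transcribed away from each other from starts 164 bases apart, and their windows overlap by 163 bases. A match describes letters in a window and not binding.

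Few members were called after 12 h of induction and more after 48 h. At 12 h 1 of 33 members was called, where 1.08% of all genes were, and it was higher (0.896% of all genes were called higher). At 24 h 7 were called, 6 higher and 1 lower, against a background of 3.91%, with 2.91% higher and 0.994% lower. With only the arrays compared in the fit, 4 members were called at each of these times. At 48 h 15 were called, 13 higher and 2 lower, against a background of 12.4%, with 6.85% higher and 5.56% lower. Peg12, 1 of the 13, passed the filter on low signal only through the induced 24 h and 48 h groups, where it is higher. The median change over the 33 members was 0.05 at 12 h, 0.11 at 24 h and 0.05 at 48 h, and over all genes 0.00, 0.01 and 0.01, so the median member differed little at each time. The number of all genes called at 12 h, 154, was 74 without the second induced array and between 93 and 100 without uninduced array 1 or 2 or induced array 1 or 3. The 558 genes called at 24 h fell to 306 without the second induced array and to 331 without the first uninduced array.

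Both parental classes held genes that differed. At 48 h 8 of the 19 tested paternal genes were called higher and 1 lower, and of the 12 tested maternal genes 4 were called higher and 1 lower. Of all genes, 6.85% were called higher and 5.56% lower at that time. Peg12, 1 of the 8, passed the filter on low signal only through the induced 24 h and 48 h groups. Of Grb10 and Gnas, Grb10 was called higher. At 24 h 4 paternal genes were higher and 1 lower, and 2 maternal genes were higher, where 2.91% of all genes were higher and 0.994% lower. The median change at 48 h was 0.12 in the paternal and 0.03 in the maternal class. The difference between the classes was not tested.

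**Figure D1:**
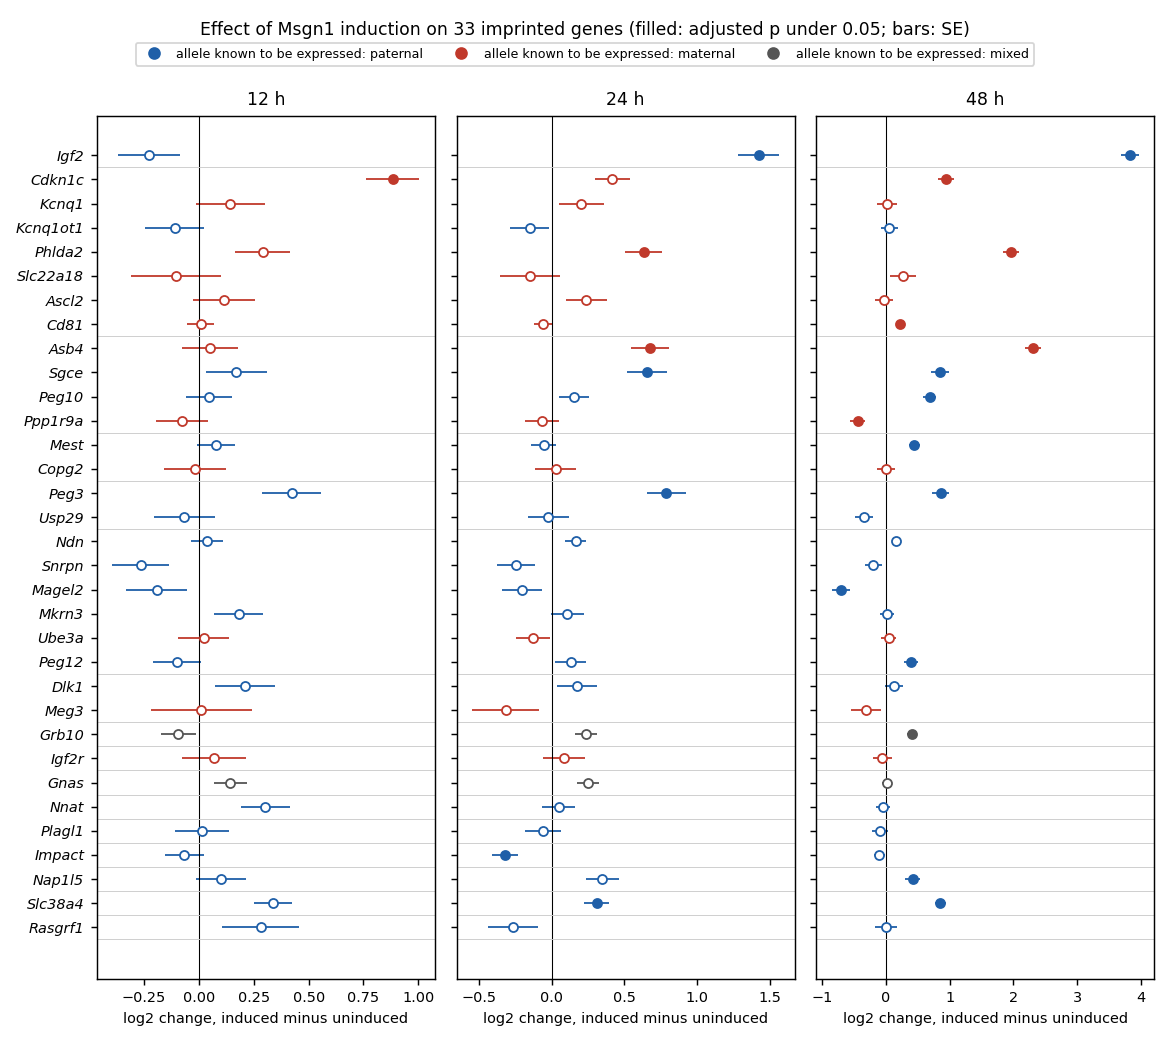
Change in log2(signal + 32), induced minus uninduced, for the 33 tested imprinted genes at 12, 24 and 48 h, grouped by cluster and coloured by the allele known to be expressed. Filled points had an adjusted p under 0.05 and bars are the standard error. The horizontal scale differs between panels: the change of Igf2 is 1.42 at 24 h and 3.83 at 48 h.

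Igf2, the secreted growth factor of the H19/Igf2 cluster, showed the largest change of any member at 24 and 48 h. In uninduced embryoid bodies its signal was 91.8, 83.8 and 135 at 12 h, 131, 149 and 152 at 24 h, and 217, 257 and 268 at 48 h. With induction it was 88.0, 83.1 and 76.5 at 12 h, 368, 465 and 498 at 24 h, and 4990, 3326 and 3650 at 48 h. The groups overlapped at 12 h, and every induced array lay above every uninduced one at 24 and 48 h. Group means ran, from low to high, induced 12 h (82.5 ± 5.78 SD, n = 3), uninduced 12 h (104 ± 27.7), uninduced 24 h (144 ± 11.5), uninduced 48 h (247 ± 26.5), induced 24 h (444 ± 67.4) and induced 48 h (3988 ± 882). Arrays of the uninduced 12 h group overlapped with both of its neighbours in this order, and no other neighbouring groups overlapped.

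The induced minus uninduced change of Igf2 was -0.23 ± 0.14 at 12 h (limma adjusted p = 0.613), 1.42 ± 0.14 at 24 h (a 2.69-fold difference, adjusted p = 8.19e-07) and 3.83 ± 0.14 at 48 h (14.2-fold, adjusted p = 7.76e-14). A second, dimmer Igf2 probe set was below 10 on every array outside the induced 48 h group, where it read 76.4, 41.2 and 61.0. It passed the filter on low signal only through that group, so these values are a description and no support for the change. At 24 h it read 2.01, 5.18 and 2.83 without and 9.65, 1.72 and 3.10 with induction, and the groups overlapped. With the mean of both probe sets in place of the brighter one the change of Igf2 was 0.74 at 24 h and 2.53 at 48 h, both still called.

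**Figure D2:**
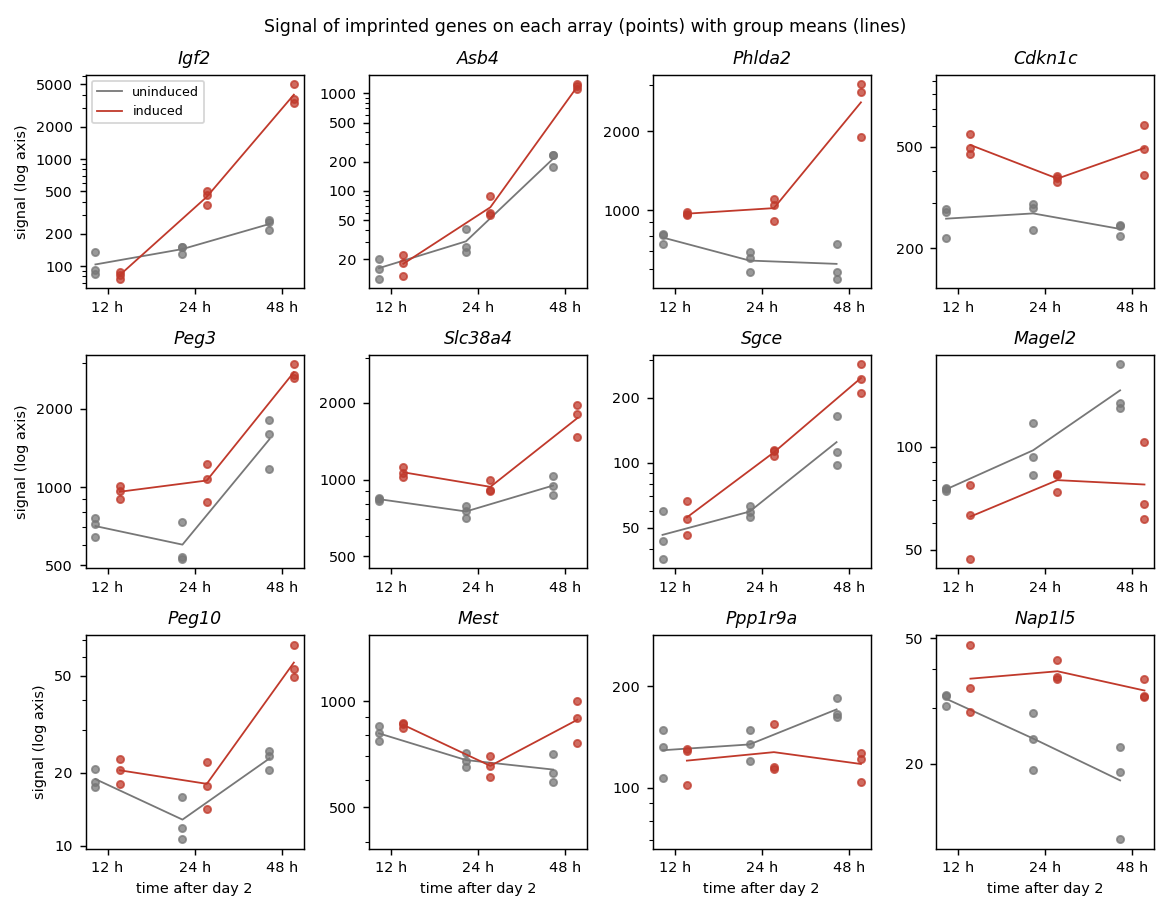
Signal on each array (points, logarithmic axis) and group means (lines) for the 12 imprinted genes with the largest called changes at 48 h, uninduced in grey and induced in red, against hours after day 2. The induced and uninduced points of each gene stand apart at 48 h, with the induced arrays lower for Magel2 and Ppp1r9a and higher for the other 10 genes.

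Among the genes that act with Igf2, the binding protein Igfbp4, which holds insulin-like growth factors in the extracellular space, was called at all times of induction. Its signal at 24 h was 219, 235 and 225 without and 669, 743 and 817 with induction, with no overlap. Its change was 0.80 ± 0.11 at 12 h (limma adjusted p = 0.000183), 1.58 ± 0.11 at 24 h (4.04e-09) and 1.90 ± 0.11 at 48 h (1.31e-10). Of the 9 tested partners, Igfbp4 alone was called at 12 and 24 h, and at 48 h 3 were higher and 1 lower: Igfbp4, the ligand Igf1 (0.96 ± 0.12) and Igfbp3 (0.75 ± 0.09) were higher, and Igfbp2 was lower (-0.46 ± 0.10). Of all genes, 1.08% were called at 12 h and 3.91% at 24 h, and at 48 h 6.85% were called higher and 5.56% lower. The receptors Igf1r and Insr, through which Igf2 signals, were not called at any time of induction, and both rose in uninduced embryoid bodies from 12 to 48 h, by 1.25 ± 0.13 and 0.83 ± 0.12. Igf2bp2 had no probe set of its own.

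Igf2r, the maternally expressed receptor that carries Igf2 to the lysosome, was not called for induction. Its signal was 569, 479 and 404 in uninduced and 553, 401 and 439 in induced embryoid bodies at 48 h, and the groups overlapped (change -0.06 ± 0.15, limma adjusted p = 0.869). It rose with time in both series, by 1.03 ± 0.15 from 12 to 48 h without induction, where its 12 h arrays read 277, 193 and 194, and by 0.90 ± 0.15 with it. The rise without induction was 0.66 with the mean of its probe sets and was still called.

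In the Kcnq1 cluster, Cdkn1c, a cyclin-dependent kinase inhibitor that slows the cell cycle, was the only member called at 12 h. Its signal was 278, 286 and 220 in uninduced and 561, 494 and 467 in induced embryoid bodies at 12 h, 236, 298 and 287 against 363, 376 and 385 at 24 h, and 243, 247 and 223 against 606, 388 and 488 at 48 h. The induced arrays lay above the uninduced ones at each time. The change was 0.88 ± 0.12 at 12 h (1.84-fold, limma adjusted p = 0.00017), 0.42 ± 0.12 at 24 h (adjusted p = 0.0586) and 0.94 ± 0.12 at 48 h (1.92-fold, adjusted p = 8.11e-06). At 24 h a block for the replicate number, chosen after seeing the data, gave an adjusted p of 0.0462. The difference of Cdkn1c between 48 and 12 h was -0.11 ± 0.12 without and -0.05 ± 0.12 with induction, neither of them called.

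Phlda2, a maternally expressed gene that limits placental growth and lies in the same cluster, was called at 24 and 48 h. Its signal was 744, 809 and 816 in uninduced and 960, 971 and 985 in induced embryoid bodies at 12 h, 659, 694 and 583 against 1104, 1046 and 910 at 24 h, and 552, 745 and 585 against 3008, 1893 and 2804 at 48 h. The groups did not overlap at any time. The change was 0.29 ± 0.13 at 12 h (limma adjusted p = 0.383), 0.63 ± 0.13 at 24 h (1.55-fold, adjusted p = 0.00445) and 1.96 ± 0.13 at 48 h (3.90-fold, adjusted p = 4.57e-10). Without induction its difference between 48 and 12 h was -0.33 ± 0.13 (adjusted p = 0.0514), and with induction it rose by 1.35 ± 0.13.

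Of the other 5 tested genes of the Kcnq1 cluster, Cd81, a tetraspanin of the cell surface, was called at 48 h. Its signal was 1646, 1846 and 1582 without and 2006, 1935 and 1961 with induction, a change of 0.22 ± 0.06 (limma adjusted p = 0.023). That call was lost without the first uninduced array (adjusted p = 0.0894), the third uninduced (0.138), the first induced (0.0762) or the third induced array (0.0597), and under 2 other settings (0.0613 and 0.0647). Kcnq1ot1, the paternal noncoding RNA whose transcription silences the cluster on that chromosome, ranged from 38.5 to 64.9 in the 48 h arrays, and the groups overlapped (0.05 ± 0.13). Ascl2, a helix-loop-helix factor of trophoblast, ranged from 43.1 to 61.7 at 48 h (-0.03 ± 0.14). The potassium channel subunit Kcnq1 and the transporter Slc22a18 had no group mean above 32 and were not called in any comparison.

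In the Peg10/Sgce cluster, Asb4, a maternally expressed gene of the ubiquitin ligase adaptor family, showed the second largest change at 48 h. Its signal was 15.8, 20.1 and 12.6 in uninduced and 22.2, 13.4 and 18.1 in induced embryoid bodies at 12 h, 40.9, 23.8 and 26.7 against 59.7, 56.4 and 87.9 at 24 h, and 232, 231 and 177 against 1179, 1106 and 1237 at 48 h. The groups overlapped at 12 h and not at 24 or 48 h. The change was 0.05 ± 0.13 at 12 h (limma adjusted p = 0.928), 0.68 ± 0.13 at 24 h (adjusted p = 0.00292) and 2.30 ± 0.13 at 48 h (4.94-fold, adjusted p = 7.69e-11). The call at 24 h was missed when only the 24 h arrays were fitted (adjusted p = 0.0506).

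Sgce, which encodes epsilon-sarcoglycan, and Peg10, a gene derived from a retrotransposon and needed for the placenta, are paternally expressed and start next to each other. The signal of Sgce was 56.4, 63.1 and 59.0 without and 108, 113 and 115 with induction at 24 h, and 112, 164 and 98.1 against 286, 212 and 244 at 48 h, with no overlap at either time. Its change was 0.65 ± 0.14 at 24 h (limma adjusted p = 0.00709) and 0.85 ± 0.14 at 48 h (1.80-fold, adjusted p = 0.000156). Peg10 was dim until 48 h, when it read 23.5, 24.6 and 20.6 without and 67.4, 49.3 and 53.6 with induction. Peg10 was called at 48 h (0.69 ± 0.10, adjusted p = 5.61e-05) and not at 24 h (0.16 ± 0.10). With 8 in place of 32 added before the logarithm its change at 48 h was 1.06.

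Ppp1r9a, a maternally expressed gene between them and Asb4 that encodes the actin-binding protein neurabin, went the other way. Its signal at 48 h was 184, 163 and 166 without and 122, 127 and 104 with induction, without overlap (-0.44 ± 0.12, limma adjusted p = 0.0149). The probe set with the highest signal was the one called among 5, the mean of the 5 was not (-0.19, adjusted p = 0.209), and the call was lost without the first uninduced (0.0728) or the third induced array (0.0844). 

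Peg3, a paternally expressed zinc finger gene, was higher with induction at 24 and 48 h. Its signal was 759, 724 and 643 against 968, 900 and 1013 at 12 h, 531, 541 and 732 against 878, 1079 and 1226 at 24 h, and 1813, 1594 and 1179 against 2964, 2695 and 2634 at 48 h, uninduced first. Every induced array lay above every uninduced array of its time, although the 12 h difference was not called (0.42 ± 0.13, limma adjusted p = 0.167). The change was 0.79 ± 0.13 at 24 h (adjusted p = 0.000935) and 0.86 ± 0.13 at 48 h (1.82-fold, adjusted p = 8.26e-05), and 3 of its 3 kept probe sets were called at both times. Usp29, which shares the promoter region of Peg3, had no group mean above 32 and was not called, with 12.8, 17.9 and 15.3 without and 9.59, 2.26 and 4.46 with induction at 48 h (-0.34 ± 0.14, adjusted p = 0.128). Usp29 passed the filter on low signal only through the uninduced 48 h group, where it is higher, so these values are a description and no support for a difference. Zim1, the maternal gene of the cluster, had group means between 1.61 and 10.5.

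Mest, a paternally expressed gene of mesoderm that encodes a hydrolase-like protein, was called at 48 h. It read 707, 589 and 625 without and 1002, 760 and 898 with induction, without overlap (0.45 ± 0.09, limma adjusted p = 0.000974). Its uninduced level fell from 12 to 48 h by 0.33 ± 0.09, from 813, 849 and 772, and the change of its induced level was not called (0.04 ± 0.09). Copg2, a coatomer subunit gene that overlaps the end of Mest on the other strand, was not called for induction at 48 h (-0.00 ± 0.14, with arrays between 395 and 492).

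In the Snrpn/Ube3a cluster, the Prader-Willi and Angelman region, 2 of 6 tested members were called for induction at 48 h. Magel2, a paternally expressed regulator of ubiquitin ligases, was lower with induction at 48 h: 134, 130 and 174 against 68.0, 103 and 61.4, without overlap (-0.71 ± 0.14, limma adjusted p = 0.00109). Peg12, also paternal, was higher, at 11.2, 7.83 and 14.4 against 29.6, 21.5 and 22.4 (0.39 ± 0.11, adjusted p = 0.0192). Its other 4 group means, between 7.25 and 11.1, were below the filter, so it was tested only because these induced groups were higher. All of its values lay under 32, and the call was lost without the first uninduced (adjusted p = 0.0532), the second uninduced (0.0923) or the first induced array (0.105), and with only the arrays compared in the fit (0.0511). With 8 added before the logarithm its change was 0.77.

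Ndn, the paternally expressed gene of necdin, a brake on proliferation, rose with time in both series and was not called for induction. It read 457, 419 and 458 at 12 h and 1119, 1154 and 1024 at 48 h without induction, a rise of 1.25 ± 0.07 (2.37-fold, limma adjusted p = 1.69e-11). With induction it rose by 1.37 ± 0.07, and 5 of its 5 kept probe sets were called in both series. At 48 h its induced arrays, at 1293, 1251 and 1160, lay just above the uninduced ones (0.16 ± 0.07, adjusted p = 0.167). The ubiquitin ligase genes Ube3a and Mkrn3 were not called in any comparison, nor was Snrpn, a spliceosome gene, by its single-symbol probe set, which had group means between 28.8 and 52.2.

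Of the genes in domains of their own, Slc38a4, a paternally expressed amino acid transporter, was higher with induction at 24 and 48 h. It read 706, 752 and 788 against 913, 900 and 993 at 24 h (0.31 ± 0.09, limma adjusted p = 0.0471) and 1033, 866 and 941 against 1803, 1469 and 1962 at 48 h (1.81-fold, 0.85 ± 0.09, adjusted p = 2.94e-07). The groups did not overlap at these times or at 12 h (0.34 ± 0.09, adjusted p = 0.0637). The 24 h call was lost without any 1 of the 6 arrays of that time other than the third uninduced one (adjusted p 0.0812 to 0.189) and under 4 other settings (0.0659 to 0.149).

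Grb10, an adaptor that damps insulin and growth factor receptor signalling, read 1383, 1264 and 1252 without and 1971, 1631 and 1608 with induction at 48 h (0.40 ± 0.08, limma adjusted p = 0.000907). That call rests on 1 of its 3 probe sets: with their mean the change was 0.22 (adjusted p = 0.0541). Nap1l5, a paternally expressed gene related to nucleosome assembly factors, read 11.5, 18.9 and 22.6 against 32.6, 37.1 and 32.5 at 48 h (0.42 ± 0.11, adjusted p = 0.0164). Its groups did not overlap, and the call was lost without the first uninduced (adjusted p = 0.108) or the second induced array (0.0582). With 8 added before the logarithm its change was 0.74.

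Impact, a paternally expressed regulator of the kinase Gcn2, was the member called lower at 24 h. It read 1366, 1368 and 1489 without and 1117, 1101 and 1140 with induction, without overlap (-0.32 ± 0.09, limma adjusted p = 0.0391), and leaving out any 1 of these 6 arrays ended the call (adjusted p 0.0688 to 0.134), as did 4 other settings (0.0538 to 0.0804). Its 48 h groups overlapped (-0.10 ± 0.09). Gnas, which encodes the alpha subunit of the stimulatory G protein, was not called for induction at any time. Nnat, Plagl1 and Rasgrf1, whose group means never exceeded 32, were not called for induction either.

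In the Dlk1/Dio3 cluster neither tested gene was called in any comparison. Meg3, the maternal long noncoding RNA, read 1172, 1330 and 2618 without and 1174, 1154 and 1556 with induction at 48 h, with the third uninduced array well above the other two and overlapping groups (-0.31 ± 0.23, limma adjusted p = 0.463). None of its 11 kept probe sets was called for induction. Dlk1, a transmembrane ligand related to those of the Notch receptors, had group means between 21.2 and 31.8.

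The comparisons over time share arrays with those of induction, so their values are given side by side and not as separate support. From 12 to 48 h without induction 15 members were called, 11 higher and 4 lower, against a background of 33.6% of all genes, with 18.6% higher and 15.0% lower. The largest rises were in Asb4 (2.34 ± 0.13), Ndn, Igf2 (1.06 ± 0.14, 2.08-fold), Peg3 (1.06 ± 0.13), Igf2r, Sgce (0.99 ± 0.14) and Gnas (0.96 ± 0.08), followed by Magel2 (0.72 ± 0.14), Grb10 (0.66 ± 0.08), Ppp1r9a (0.34 ± 0.12) and Nnat (0.30 ± 0.11). Nap1l5 (-0.37 ± 0.11), Kcnq1ot1 (-0.35 ± 0.13), Mest and Cd81 (-0.20 ± 0.06) fell. The smaller calls, apart from that of Mest, depended on single arrays. That of Nap1l5 was lost without the first 48 h array (adjusted p = 0.0914), and those of Kcnq1ot1, Cd81, Ppp1r9a and Nnat without any of 3 or 4 arrays each, at their highest adjusted p 0.290, 0.102, 0.179 and 0.164. Quantile normalization also ended the calls of Cd81 (0.0954), Ppp1r9a (0.106) and Nnat (0.0546). The rise of Ppp1r9a was 0.09 (limma adjusted p = 0.505) with the mean of its probe sets, and the fall of Kcnq1ot1 was -0.18 (0.226). Counting these, settings that left no array out ended the call of Kcnq1ot1 in 5 cases (adjusted p 0.0517 to 0.226) and that of Nnat in 3 (0.0541 to 0.0773). The rise of Igf2 was 0.54 with the mean of its probe sets, that of Grb10 0.29 and that of Gnas 0.63, all still called. The fall of Kcnq1ot1 was -0.20 without the first 12 h array, and that of Nap1l5 was -0.67 with 8 added before the logarithm, when the rise of Nnat was 0.56.

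With induction 14 members were called from 12 to 48 h, 13 higher and 1 lower, against a background of 41.7%, with 22.8% higher and 18.9% lower. Igf2 rose by 5.11 ± 0.14 (34.6-fold, limma adjusted p = 1.4e-16) and Asb4 by 4.60 ± 0.13 (24.2-fold). Sgce (1.66 ± 0.14), Peg3 (1.49 ± 0.13), Ndn, Phlda2, Grb10 (1.16 ± 0.08), Igf2r, Gnas (0.83 ± 0.08), Peg10 (0.75 ± 0.10), Slc38a4 (0.68 ± 0.09), Peg12 (0.52 ± 0.11) and Copg2 (0.37 ± 0.14) also rose, and Ascl2 fell (-0.38 ± 0.14). Peg12, 1 of the 13, passed the filter on low signal only through the induced 24 h and 48 h groups. Its rise is therefore a description and no support. The call of Copg2 was lost without any of the 12 h arrays or the first 48 h array (adjusted p up to 0.175). It was also lost with quantile normalization (0.0795), with no filter (0.0611) and with no intensity trend (0.0557). The call of Ascl2 was lost without the first 12 h array (-0.22, adjusted p = 0.238) or without the second (0.114) or the third 48 h array (0.121). The rise of Gnas rests on a probe set that may match other transcripts. It was 0.18 (adjusted p = 0.245) with the brightest set not so marked, while its rise without induction was then 0.47 and still called. With the mean of probe sets the rise of Igf2 was 3.25, of Grb10 0.49 and of Gnas 0.53, all still called. The change of Ascl2 was then -0.22 and no longer called (limma adjusted p = 0.153). Its call was also lost with probe sets not marked s or x (-0.26, adjusted p = 0.206) and with no filter (0.0595). With 8 added before the logarithm the rises of Peg10 and Peg12 were 1.18 and 1.09.

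Whether the effect of induction itself differed between 48 and 12 h was tested directly. The difference was called for 7 members, all 7 higher, against a background of 5.47%, with 2.84% higher and 2.63% lower: Igf2 (4.06 ± 0.20, limma adjusted p = 2.92e-11), Asb4 (2.25 ± 0.18, 1.06e-07), Phlda2 (1.67 ± 0.18, 4.01e-06), Sgce (0.68 ± 0.20, 0.0451), Peg10 (0.64 ± 0.15, 0.00892), Slc38a4 (0.51 ± 0.12, 0.0123) and Grb10 (0.50 ± 0.11, 0.00726). For Cdkn1c the difference was 0.06 ± 0.17 (adjusted p = 0.908), and its effect was 0.88 at 12 h and 0.94 at 48 h. For Peg3 it was 0.44 ± 0.19 (0.219) and for Magel2 -0.52 ± 0.20 (0.152). The call of Sgce was lost without any 1 of 8 arrays (adjusted p 0.0653 to 0.138) and under 6 other settings (0.0531 to 0.107), and that of Grb10 with the mean of its probe sets (0.20, adjusted p = 0.324). The difference was 2.70 for Igf2 with the mean of its probe sets and 0.98 for Peg10 with 8 added before the logarithm.

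**Figure D3:**
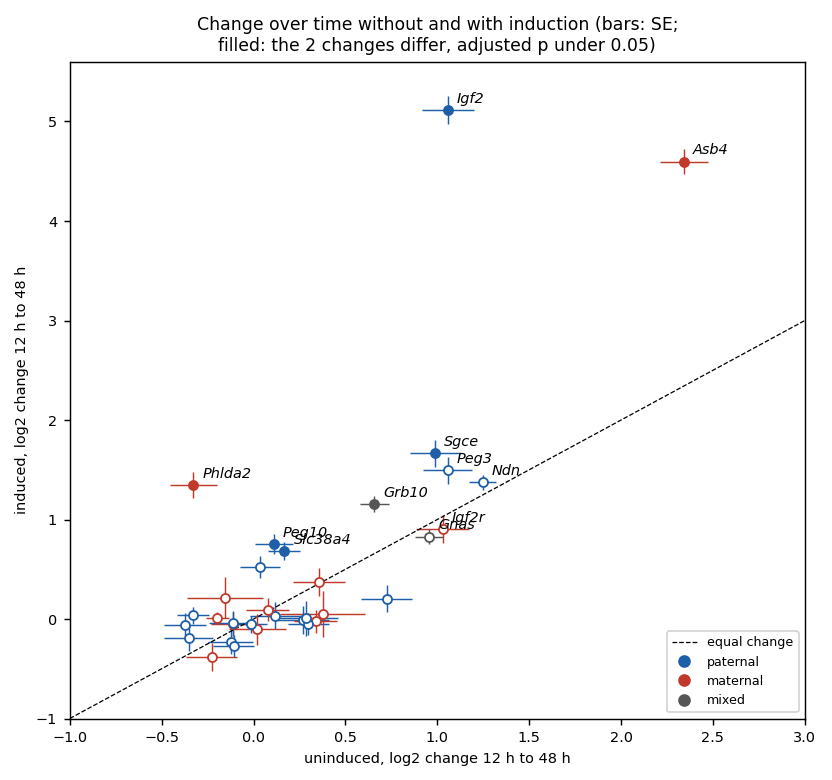
Change in log2(signal + 32) from 12 to 48 h without induction (horizontal) and with induction (vertical) for the 33 tested imprinted genes, with standard errors as bars, filled where both changes differ with an adjusted p under 0.05 and a dashed line of equal change. Igf2 and Asb4 lie farthest above the line, Phlda2 has a negative change without induction and a positive one with it, and Ndn, Igf2r and Gnas lie close to the line.

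A further list of 40 imprinted genes, of which 29 were tested, held 1 gene called higher and 4 called lower at 48 h, or 17.2% called, where 6.85% of all genes were called higher and 5.56% lower. The phosphodiesterase gene Pde10a was higher (0.63 ± 0.13), at 29.2, 29.9 and 35.1 without and 61.9, 65.0 and 71.6 with induction. Calcr, the calcitonin receptor gene and a neighbour of the Peg10/Sgce cluster, was lower: it read 215, 210 and 213 against 51.2, 76.5 and 59.5 (-1.38 ± 0.11, limma adjusted p = 1.3e-08). Rian, a noncoding RNA of the Dlk1/Dio3 cluster (-0.50 ± 0.14), Jade1 (-0.42 ± 0.09) and Gab1 (-0.27 ± 0.09), an adaptor of receptor signalling, were lower too. At 12 h none of the 29 was called by limma, with 5 at an unadjusted p under 0.05, and at 24 h Calcr alone was called (-0.45 ± 0.11). The median change of the 29 at 48 h was 0.02.

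Genes that keep or erase imprints were followed beside the members. Of 18 tested, 1 was called at 48 h, or 5.56%, where 12.4% of all genes were. This was Dnmt3b, a de novo DNA methyltransferase (-0.59 ± 0.13, limma adjusted p = 0.0037), and the one called at 24 h was Dppa3, which guards methylation in the early embryo (-0.45 ± 0.13). None was called at 12 h, with 2 at an unadjusted p under 0.05. From 12 to 48 h without induction 9 fell and 1 rose, where 15.0% of all genes fell and 18.6% rose: Dnmt3l, the cofactor of the de novo enzymes, fell by 2.14 ± 0.16 on the log2 scale, Dppa3 by 1.51 ± 0.13, the demethylase gene Tet1 by 1.19 ± 0.16 and Dnmt3a by 1.06 ± 0.09. With induction 12 fell and none rose, where 18.9% of all genes fell and 22.8% rose. Zfp57, which protects imprints, changed by -0.70 ± 0.12 without induction and by -0.35 ± 0.13 with it, both called.

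Markers of cell types moved in the same comparisons, and their part in the results was not tested. Of 14 fibroblast genes, chosen for the feeder cells, 6 were higher with induction at 48 h and none lower, where 6.85% of all genes were higher and 5.56% lower, among them Fbln2 (1.23 ± 0.15), Col1a2 (0.84 ± 0.13) and Pdgfrb (0.74 ± 0.10). At 24 h 3 were higher, Col1a2, Pdgfrb and Mmp2, where 2.91% of all genes were. The summed signal of the 14 at 24 h was 1232 to 1413 without and 1439 to 1506 with induction, without overlap. The sum was 954 to 1177 without and 1488 to 1763 with induction at 48 h. In the induced arrays of 12 h that sum was 1368 to 1630 and overlapped with that of the induced arrays of 48 h. In uninduced arrays it was 1231 to 1380 at 12 h, above all uninduced 48 h arrays.

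Of 12 genes of extraembryonic endoderm, a tissue with high Igf2, 9 were tested, and the defining markers Afp, Ttr and Apoa1 were below the filter. At 48 h Foxa2 (-2.04 ± 0.17), Spink1 (-0.95 ± 0.17) and Sox17 (-0.84 ± 0.15) were lower and Sox7 was higher (1.42 ± 0.12). The summed signal of the 9 was 1565 to 1977 without and 779 to 897 with induction. Without the defining markers, this sum does not show how much extraembryonic endoderm was present. Of 10 trophoblast genes 6 were tested, with Elf5 and Tpbpa below the filter, and Gata3 (1.05 ± 0.17) and Cdx2 (0.81 ± 0.15), both also expressed outside trophoblast, were higher at 48 h. The trophoblast sums, 2847 to 3111 without and 2262 to 3546 with induction, overlapped at 48 h. They did not overlap at 12 h, at 420 to 485 without and 567 to 614 with induction, or at 24 h, at 543 to 855 and 1419 to 1794. At 24 h Eomes (1.55 ± 0.16), which is also a gene of the streak list, was the trophoblast gene called.

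Of 8 genes of the primitive streak and presomitic mesoderm, 3 were higher with induction at 12 h, 7 at 24 h and 6 at 48 h. Of all genes, 0.896%, 2.91% and 6.85% were called higher at these times. The list holds Msgn1, the gene that doxycycline switches on, so its own call is no support. At 48 h these were Dll3 (1.43 ± 0.08), Msgn1, Mesp1 (1.11 ± 0.16), Dll1 (0.72 ± 0.13), Tbx6 (0.69 ± 0.11) and Hes7 (0.61 ± 0.18). Of 6 genes of pluripotent cells 5 were lower at 48 h, Sox2 by the most (-1.06 ± 0.08), and Klf4 was higher (0.76 ± 0.17). At that time 5.56% of all genes were called lower.

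**Figure D4:**
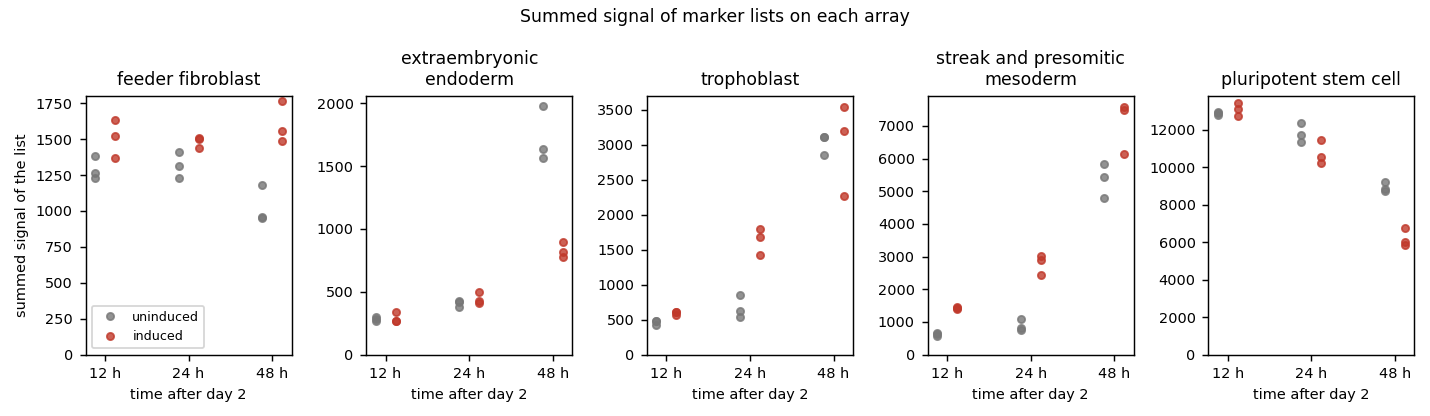
Summed signal of the tested genes of each marker list on each array at 12, 24 and 48 h after day 2, uninduced in grey and induced in red. At 48 h the induced arrays lie above the uninduced ones for the fibroblast list. They lie below them for the extraembryonic endoderm list, which lacks its defining markers, and for the pluripotent cell list. Both groups overlap for the trophoblast list.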

How the data were processed

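RNA of 18 embryoid body samples, 3 in each of 6 groups taken from the sample titles, was measured on single-channel Affymetrix arrays. The deposited values are signal intensity on a linear scale for 45101 probe sets, made with GCOS per the submitters' processing notes, whose algorithm and target are not given in the sources here. No detection calls were used. Besides 64 controls, 34945 probe sets had 1 gene, 932 several and 9160 none. A probe set was kept if a group mean reached the 40th percentile of all values, and the brightest stood for its gene. Values were taken as log2(signal + 32) without further normalization, since array medians lay within 0.093, and tested with limma 3.58.1 in R 4.3.3 (6 group means, 12 residual degrees of freedom, intensity trend, Benjamini-Hochberg over 14282 genes). Fits were tested on simulated data. Figures used Python 3.11.15 and matplotlib 3.10.9.

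The members, gene lists and marker lists were chosen with earlier results of these data known. Members called in any comparison were named by size of change, and of the other lists up to 4 called genes per comparison. Deviations from the group mean were correlated between same-numbered arrays of both groups. The 24 h arrays gave 0.196, 0.136 and 0.442, the 12 h arrays 0.010, 0.072 and -0.067, and the 48 h arrays -0.128, -0.066 and 0.083. Differently numbered 24 h arrays gave 0.203 (uninduced 2, induced 1) and 0.115 (uninduced 1, induced 2). Only number 3 therefore stood apart, and the values do not show that numbers 1 and 2 are pairs. The main fit held no term for the numbers, which entered only as replicate blocks in other settings. Other settings were quantile normalization, no filter, a filter at the 60th percentile, an offset of 8, averaged probe sets, probe sets not marked s or x, no trend, only the arrays compared, replicate blocks, and each array left out.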

Additional observations from a re-analysis of the deposited data

Results flagged for a closer look

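For 7 imprinted genes the effect of induction differed between 48 and 12 h by limma's test of that difference. On the log2 scale the difference was 4.06 for Igf2, whose effect went from -0.23 to 3.83, 2.25 for Asb4 (0.05 to 2.30), 1.67 for Phlda2 (0.29 to 1.96), 0.68 for Sgce (0.17 to 0.85), 0.64 for Peg10 (0.05 to 0.69), 0.51 for Slc38a4 (0.34 to 0.85) and 0.50 for Grb10 (-0.09 to 0.40). The call of Sgce was lost without any 1 of 8 arrays and under 6 other settings. That of Grb10 was lost with the mean of its probe sets (0.20, limma adjusted p = 0.324).

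A probe set annotated to both Mir675 and H19, outside the comparisons above because it names 2 genes, gave a signal at 48 h. Mir675 is a microRNA made from H19, the maternal noncoding RNA that neighbours Igf2. The probe set read 47.7, 51.5 and 56.2 without and 306, 367 and 206 with induction at 48 h, and the groups did not overlap. The change was 1.93 ± 0.18 (limma adjusted p = 1.34e-07 over 30518 probe sets). At 12 h it read 24.4, 38.0 and 36.5 without and 38.9, 22.7 and 29.7 with induction, and at 24 h 46.4, 35.0 and 18.1 against 41.9, 55.6 and 73.0. Both groups overlapped at these times.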

How the results depend on the processing

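Of 59 calls of a member in a comparison, 41 were kept under every alternative run for them, 18 were lost under at least 1, and 0 reversed. A call was recomputed under 9 other settings (10 at 24 h, and 8 for Peg12 and Nnat, which a filter at the 60th percentile removes) and without each array of its comparison in turn, 6 arrays or, for the difference of effects, 12. With only the arrays compared in the fit, 4 members were called at 12 h in place of 1, and 4 at 24 h in place of 7, when 241 of all genes were called in place of 558; such a fit has fewer samples. Leaving out 1 array gave, for members, 1 call throughout at 12 h, 5 to 6 at 24 h, 11 to 14 at 48 h, 11 to 15 and 12 to 14 from 12 to 48 h without and with induction, and 6 to 9 for the difference of effects. For all genes it gave 74 to 134, 306 to 456, 1269 to 1683, 3953 to 4259, 5177 to 5492 and 601 to 824 in the same order. The replicate block over all times gave 1, 6, 15, 14, 14 and 6 members and 140, 504, 1717, 4720, 5840 and 730 genes. A replicate block within 24 h, chosen after seeing the data, gave 8 members and 725 genes, and the call of Cdkn1c was the only member call it changed. The setting without probe sets marked s or x was also chosen after seeing the data. Quantile normalization moved the median change of all genes by under 0.1 in each comparison. Signals near the dim end leave Peg10, Peg12, Nap1l5 and Nnat with changes that depend on the offset.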

Other observations

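Most probe sets of Snrpn are shared with Snurf, the gene on the same transcript, and were left out of the comparisons above because they name 2 genes. Of 4 bright shared sets, 3 were called lower with induction at 48 h by limma over 30518 probe sets. The first read 1960, 1923 and 2034 without and 1104, 1244 and 1213 with induction (-0.72 ± 0.09, adjusted p = 8.99e-06), and the groups did not overlap. The differences of the others were -1.06 ± 0.14, -0.64 ± 0.10 and -0.70 ± 0.24, the last not called (adjusted p = 0.0748). The first was also lower at 12 h, at 1413, 1648 and 1582 against 964, 1100 and 1015 (-0.58 ± 0.09, adjusted p = 0.00136), and was not called at 24 h (-0.28 ± 0.09, adjusted p = 0.14). The Snrpn probe set of the comparisons above was dimmer and gave -0.20 ± 0.13 at 48 h. A probe set shared by Airn, the antisense noncoding RNA of the Igf2r domain, and Igf2r read between 1.57 and 18.3 on the 18 arrays.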
